A study of Mus musculus with 5 samples.

Results

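The renin-angiotensin genes Agt, Ren1, Ace, Agtr1a, Agtr1b and Agtr2 and the cell surface peptidase genes Enpep, Anpep and Mme were followed across 5 RNA libraries of sorted mouse fat progenitors. They were chosen by symbol, and all 9 are present, once each, among the 54532 genes of the count table. Of the 9, 7 passed a filter on low counts together with 15920 genes in all, and Agtr1b and Agtr2 did not. Stromal cells came from subcutaneous (SAT) and visceral (VAT) fat of 30 wild-type mice, 12 to 14 weeks old and fed chow, and were sorted after CD31+ and CD45+ cells had been gated out. Antibodies to CD26, the product of Dpp4, and to CD142, the product of F3, defined the gates. The VAT libraries were a pair of CD26-CD142+ libraries (libraries 1 and 2) and 1 CD26+CD142+ library.

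In SAT the labels disagree. The title of SAT library 1 reads CD26+CD142-, whereas CD142 stands in its library name. For SAT library 2 the title reads CD26-CD142+, whereas CD26 stands in the library name. Dpp4 was at 6.58 CPM (the read count scaled to library size, with TMM factors) in SAT library 1 and at 1007 CPM in SAT library 2, and F3 was at 618 and 5.32 CPM in the same order, so the sort genes follow the names. Both libraries are therefore called by number, and every comparison on gates was made by title and by name. Total counts ran from 21706345 to 25357403. Mitochondrially encoded genes took 2.83% and 4.33% of counts in the SAT and VAT libraries numbered 1, and 0.554% to 0.633% in the 3 libraries numbered 2. The mesenchymal marker list summed to between 23200 and 65630 CPM, while the macrophage list summed to at most 37.7 CPM and Pecam1, the gene of CD31, reached at most 7.26 CPM. The 12 mesothelial markers summed to 4.65 CPM in SAT library 2 and to 374 CPM in the VAT CD26+CD142+ library. They summed to between 116 and 174 CPM in SAT library 1 and the VAT CD26-CD142+ libraries. These sums mix markers that moved apart. In SAT library 1 against the VAT CD26-CD142+ libraries, the log2 change was -14.6 for Wt1 and -8.20 for Msln. It was 6.15 for Krt7, 6.31 for Krt8 and 6.43 for Krt18. In VAT CD26+CD142+ against CD26-CD142+ cells, Wt1 was at -0.26 and the other markers at 2.94 (Krt18) to 5.65 (Muc16). In bulk RNA, fewer cells of a type and less RNA per cell cannot be told apart.

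In the renin-angiotensin system, angiotensinogen is cut by renin to angiotensin I, and angiotensin-converting enzyme (ACE) removes the last residues to give angiotensin II. Angiotensin II acts on type 1 and type 2 receptors, and membrane aminopeptidases and neprilysin trim or degrade the peptides. Fat is a known source of angiotensinogen outside the liver, and several of these peptidases serve as surface markers of stromal cells.

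The levels of the 9 genes spanned several orders of magnitude. Per kilobase of gene length, Ace was at 393 ± 187 CPM (SD, n = 5 libraries), Agt at 161 ± 161, Anpep at 37.4 ± 25.1, Enpep at 27.6 ± 17.2, Agtr1a at 12.4 ± 6.30 and Mme at 2.83 ± 3.45. Ren1 was at 0.370, Agtr2 at 0.0614 and Agtr1b at 0.0203 CPM per kilobase on average. Each gene overlapped with the next in this order in its range over the 5 libraries. By level per kilobase, Ace ranked between place 47 (SAT library 2) and place 229 (SAT library 1) of the 15920 genes that passed the filter.

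**Figure D1:**
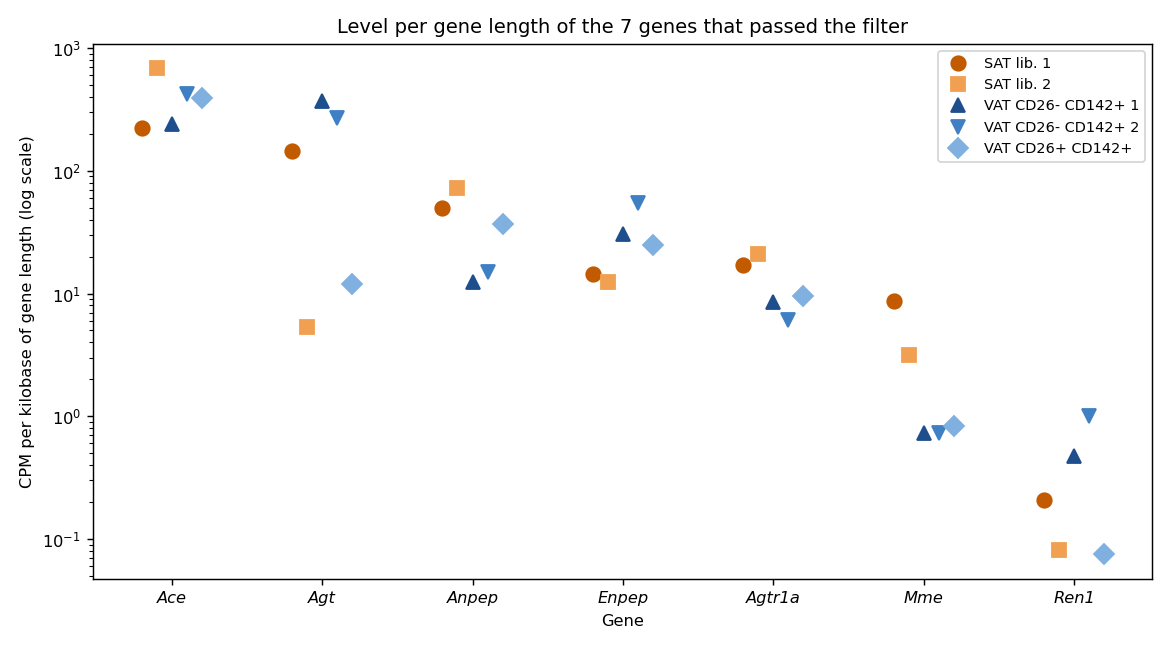
CPM per kilobase of gene length (log scale) of the 7 genes that passed the filter, 1 symbol per library. Ace is the highest in 4 of the 5 libraries, and Agt spans the range from 5.34 in SAT library 2 to 371 in VAT CD26-CD142+ library 1.

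Agt, the gene of angiotensinogen, was the gene of the 9 that differed most between gates. Agt (ENSMUSG00000031980, mm10 chromosome 8, 124556534 to 124569706, minus strand) was at 702 and 514 CPM in libraries 1 and 2 of VAT CD26-CD142+ cells and at 22.8 CPM in VAT CD26+CD142+ cells. In SAT it was at 275 CPM in library 1 and at 10.1 CPM in library 2. The lowest of the 3 libraries with Dpp4 low thus lay far above both libraries with Dpp4 high, and the ranges of the depots overlapped.

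Within VAT, Agt was lower in CD26+CD142+ cells by 4.74 on the log2 scale (log2 change -4.74, SE 0.66, adjusted p = 0.00157, edgeR), which is 26.7-fold. It was the 1 gene of the 7 that passed, where 1.6% of all genes tested passed. Between the SAT libraries, which were compared without a test, Agt was 27.2-fold lower in library 2 (95% counting interval 23.8 to 31.3). With gates by library name and depot as a term, Agt fell in CD26+ cells (log2 change -4.75, SE 0.33, adjusted p = 0.0368), again as the 1 of 7, where 0.597% of genes passed. With the library number as a block no gene passed for CD26 status by name, and Agt was at -4.45 (adjusted p = 0.255). The gate effect of Agt by name differed between depots by -0.03 (SE 0.77, adjusted p = 1), with 0.251% of genes passing. Against the VAT CD26-CD142+ pair, Agt was lower in SAT library 2 (-5.91, SE 0.71, adjusted p = 6.91e-05; 6.48% of all genes passed) and did not pass in SAT library 1 (-1.14, SE 0.53, adjusted p = 0.526; 2.36%). Between depots over all gates it was at -1.53 (SE 1.72, adjusted p = 1). In the comparisons by name the 2 CD26+ libraries differ in F3, 18.6-fold lower in SAT library 2 than in the VAT CD26+CD142+ library. The VAT contrast assumes that the lone CD26+CD142+ library varies like the CD26-CD142+ pair, which leaves 1 residual degree of freedom. Without either library of that pair no test remains, and the Agt change was then between -4.94 and -4.50.

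With gates by title, 0 of the 15920 genes passed for CD26 status with depot as a term in edgeR (0% called; 140 genes at unadjusted p under 0.05), 16 passed in DESeq2 and 0 in limma-voom. Agt was then at a log2 change of -0.20 (SE 5.81, adjusted p = 1), and the gate effect differed between depots by 9.51 on the log2 scale (SE 0.95, adjusted p = 2.19e-05; 6.61% of genes passed).

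Markers of committed preadipocytes, several of them lipid-handling genes, had their lowest sums in the same libraries as Agt. Of their 13 markers, Pparg, Apoe and Car3 passed as lower in VAT CD26+CD142+ cells (1.6% of all genes passed), and Apoe and Car3 for CD26 status by name without the library number as a block (0.597%). The 13 summed to 9199, 10400 and 10900 CPM in SAT library 1 and the VAT CD26-CD142+ pair, and to 1612 and 4856 CPM in SAT library 2 and the VAT CD26+CD142+ library. The 12 mature adipocyte markers summed to between 397 and 463 CPM in the former and to 63.9 and 126 CPM in the latter. Fabp4 was the largest part of it in the former, at 307 to 373 CPM, and was at 25.1 and 81.1 CPM in the latter, while Adipoq, the adiponectin gene, was at most at 5.32 CPM and Lep, the leptin gene, at most at 0.183 CPM. The 10 markers of CD142+ cells, with the sort gene F3 among them, summed to 5748, 4389 and 3709 CPM in the former and to 635 and 1704 CPM in the latter, and 1 of the 10, Bmp7, passed between the VAT gates, as higher in CD26+CD142+ cells. Between the VAT gates, every mature adipocyte marker tested was lower in CD26+CD142+ cells, from -0.02 (Pnpla2) to -7.61 (Plin1) on the log2 scale. The part of committed preadipocytes, adipocytes or CD142+ cells in the Agt difference was not tested.

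The genes whose pattern over the 5 libraries was most like that of Agt were Apoe, the apolipoprotein E gene, Dio3os and Car3, a carbonic anhydrase gene. Their root mean square differences from Agt, over centred log2(CPM + 1) values, were 0.366, 0.533 and 0.584. Apoe was at 1790 and 36.0 CPM in SAT libraries 1 and 2, at 2693 and 1660 CPM in the VAT CD26-CD142+ pair and at 104 CPM in the VAT CD26+CD142+ library.

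Promoter sequence from RefSeq (GRCm38.p6, the assembly that mm10 names) was found for 8 of the 9 genes, at 11 start sites. The 250 bases before the start are shown for Agt, the gene that differed between gates, for Ace, the gene with the highest mean level per kilobase, and for Anpep, which passed between each SAT library and the VAT CD26-CD142+ pair. The Anpep start that RefSeq lists lies inside the gene span of the annotation, and the first of the starts listed for Ace is shown. Capitals mark matches, on either strand, to 6 motifs: TATAAA (in 12.4% of the 32851 promoters of the table), CCAAT (33.8%), GGGCGG (32.7%), TGACTCA (4.46%), CACGTG (6.02%) and AGAACA (16.1%).
Agt, chr8:124569707-124569956, minus strand: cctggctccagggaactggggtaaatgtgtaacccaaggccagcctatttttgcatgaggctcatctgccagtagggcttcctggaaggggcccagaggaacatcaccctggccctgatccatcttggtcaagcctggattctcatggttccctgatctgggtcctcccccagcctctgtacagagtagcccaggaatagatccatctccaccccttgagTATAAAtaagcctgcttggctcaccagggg
Ace, chr11:105967698-105967947, plus strand: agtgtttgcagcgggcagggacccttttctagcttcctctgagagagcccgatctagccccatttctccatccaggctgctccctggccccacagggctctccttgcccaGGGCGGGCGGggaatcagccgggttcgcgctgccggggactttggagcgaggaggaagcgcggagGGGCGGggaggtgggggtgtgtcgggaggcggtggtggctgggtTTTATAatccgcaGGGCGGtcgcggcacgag
Anpep, chr7:79848211-79848460, minus strand: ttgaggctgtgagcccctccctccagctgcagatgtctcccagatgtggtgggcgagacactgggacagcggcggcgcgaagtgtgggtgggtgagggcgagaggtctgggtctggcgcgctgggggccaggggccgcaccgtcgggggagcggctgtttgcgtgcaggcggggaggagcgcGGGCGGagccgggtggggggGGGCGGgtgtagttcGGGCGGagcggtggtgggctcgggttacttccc
The Agt window holds 1 match, TATAAA from base -30 to base -25 before the start. The Anpep window holds no TATAAA and 3 matches to GGGCGG, and 72.8% of its bases are G or C, against a median of 52.4% over all promoters. The Ace window holds 4 matches to GGGCGG, 2 of them overlapping, and TATAAA on the opposite strand from base -31 to base -26.

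Ren1, the gene of renin, was near the limit of detection. The SAT libraries gave 8 and 3 counts, the VAT CD26-CD142+ pair 17 and 39, and the VAT CD26+CD142+ library 3. In CPM that is 0.346 and 0.135 in SAT, 0.779 and 1.68 in the VAT CD26-CD142+ pair and 0.124 in the VAT CD26+CD142+ library, where 3 counts are worth 0.124 to 0.138 CPM. Ren1 (ENSMUSG00000070645, chromosome 1, 133350510 to 133360325) was highest in the VAT CD26-CD142+ pair. Only this pair was above the filter's minimum count of 10, so Ren1 passed the filter through the libraries where it was high. The gate difference drawn from the same libraries is therefore a description only. The VAT gate difference did not pass (log2 change -3.26, SE 1.59, adjusted p = 0.656), and from 3 against 56 counts it was 10.1-fold with a counting interval of 3.27 to 50.2.

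Ace, the gene of angiotensin-converting enzyme, was abundant in every library. Ace (ENSMUSG00000020681, chromosome 11, 105967945 to 105989964) was at 1172 CPM in SAT library 1, 3625 CPM in SAT library 2, 1275 and 2248 CPM in the VAT CD26-CD142+ pair (libraries 1 and 2), and 2064 CPM with CD26+CD142+ cells of VAT. SAT library 2 was the highest, and the 2 libraries numbered 1, those with the larger mitochondrial share, were the lowest. The VAT CD26+CD142+ library lay between the libraries of the CD26-CD142+ pair, which differed 1.76-fold from each other.

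Ace passed no test. It was at a log2 change of 0.23 (SE 0.58, adjusted p = 1) in VAT CD26+CD142+ against CD26-CD142+ cells, of 0.85 (SE 0.49, adjusted p = 0.431) for CD26 status by name, and of 0.37 (SE 0.58, adjusted p = 1) in SAT against VAT. Between the SAT libraries Ace was 3.09-fold higher in library 2 (counting interval 3.05 to 3.14). Ace, Agt and Mme were the 3 of the 9 genes at least 2-fold apart there, with 6 at 10 CPM or more in 1 of the libraries, and 22.4% of the 9689 genes at that level were at least 2-fold apart. The ratio of Ace to Agt per kilobase was 1.52 in SAT library 1 and 0.649 and 1.56 in the VAT CD26-CD142+ pair, but 128 in SAT library 2 and 32.5 in the VAT CD26+CD142+ library.

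Ace is also known from endothelial cells. The 12 endothelial markers summed to 345 CPM in SAT library 2, 315 CPM in the VAT CD26+CD142+ library and between 84.6 and 93.0 CPM in the others. Tek, the angiopoietin receptor gene, was at 290 and 286 CPM in the first 2 of these, at 58.9 and 66.7 CPM in the VAT CD26-CD142+ pair and at 19.9 CPM in SAT library 1, where Plvap, a gene of fenestrated endothelium, was at 47.7 CPM. Pecam1, Cdh5 and Kdr, also among the 12, were each at 7.26 CPM or less in every library. An antisense gene, Gm11651, overlaps Ace on the other strand and had at most 9 counts in a library. The part of endothelial cells in the Ace levels was not tested. The genes most like Ace in pattern were the RNA-editing gene Adar (root mean square difference 0.102), Pvr (0.115) and the receptor gene Lgr4 (0.116).

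Of the 3 angiotensin II receptor genes, Agtr1b and Agtr2 had at most 15 counts in a library, and Agtr1a had at least 394. Agtr1a (ENSMUSG00000049115, chromosome 13, 30336441 to 30382867) was at 48.0 and 58.1 CPM in SAT libraries 1 and 2, at 23.7 and 16.9 CPM in the VAT CD26-CD142+ pair and at 26.4 CPM in the VAT CD26+CD142+ library. It took between 98.8% and 99.8% of the counts of the 3 receptor genes. Both SAT libraries lay above all VAT libraries.

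The mean of Agtr1a over SAT was 53.0 ± 7.21 CPM (SD, n = 2). Over VAT it was 22.3 ± 4.87 CPM (SD, n = 3). The difference, 1.25 on the log2 scale (SE 0.27), did not pass in edgeR (unadjusted p = 0.00454, adjusted p = 0.371). Only 8 genes, 0.0503% of those tested, passed between depots. DESeq2 gave Agtr1a adjusted p = 0.0159, and over the 14 alternatives adjusted p ran from 0.0159 to 1. Its change between gates was 0.38 (SE 0.48, adjusted p = 1) in VAT and 0.34 (SE 0.24, adjusted p = 0.511) for CD26 status by name. Against the VAT CD26-CD142+ pair, Agtr1a was at 1.24 (SE 0.47) in SAT library 1 and at 1.52 (SE 0.47) in SAT library 2. Each of these rests on 1 SAT library. Neither passed in edgeR, and the latter passed under some of the alternatives. The nearest patterns were those of Galnt12 (0.0863), a glycosyltransferase gene, Galm (0.120) and Slc27a3 (0.129).

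Agtr2, the type 2 receptor gene (ENSMUSG00000068122, chromosome X, 21484544 to 21489164), had 7 and 15 counts in SAT libraries 1 and 2, 0 in each of the VAT CD26-CD142+ pair, and 1 in VAT CD26+CD142+ cells. Its level was thus at most 0.677 CPM, seen almost wholly in SAT, at 22 counts against 1 (33.7-fold, counting interval 5.45 to 1390). Agtr1b, the second type 1 gene of rodents (ENSMUSG00000054988, chromosome 3, 20314473 to 20367177), had 5 counts in all, with 0 in SAT library 2 and in the VAT CD26+CD142+ library. Its sequence is close to that of Agtr1a, so the assignment of these few reads is uncertain. Neither gene was tested.

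**Figure D2:**
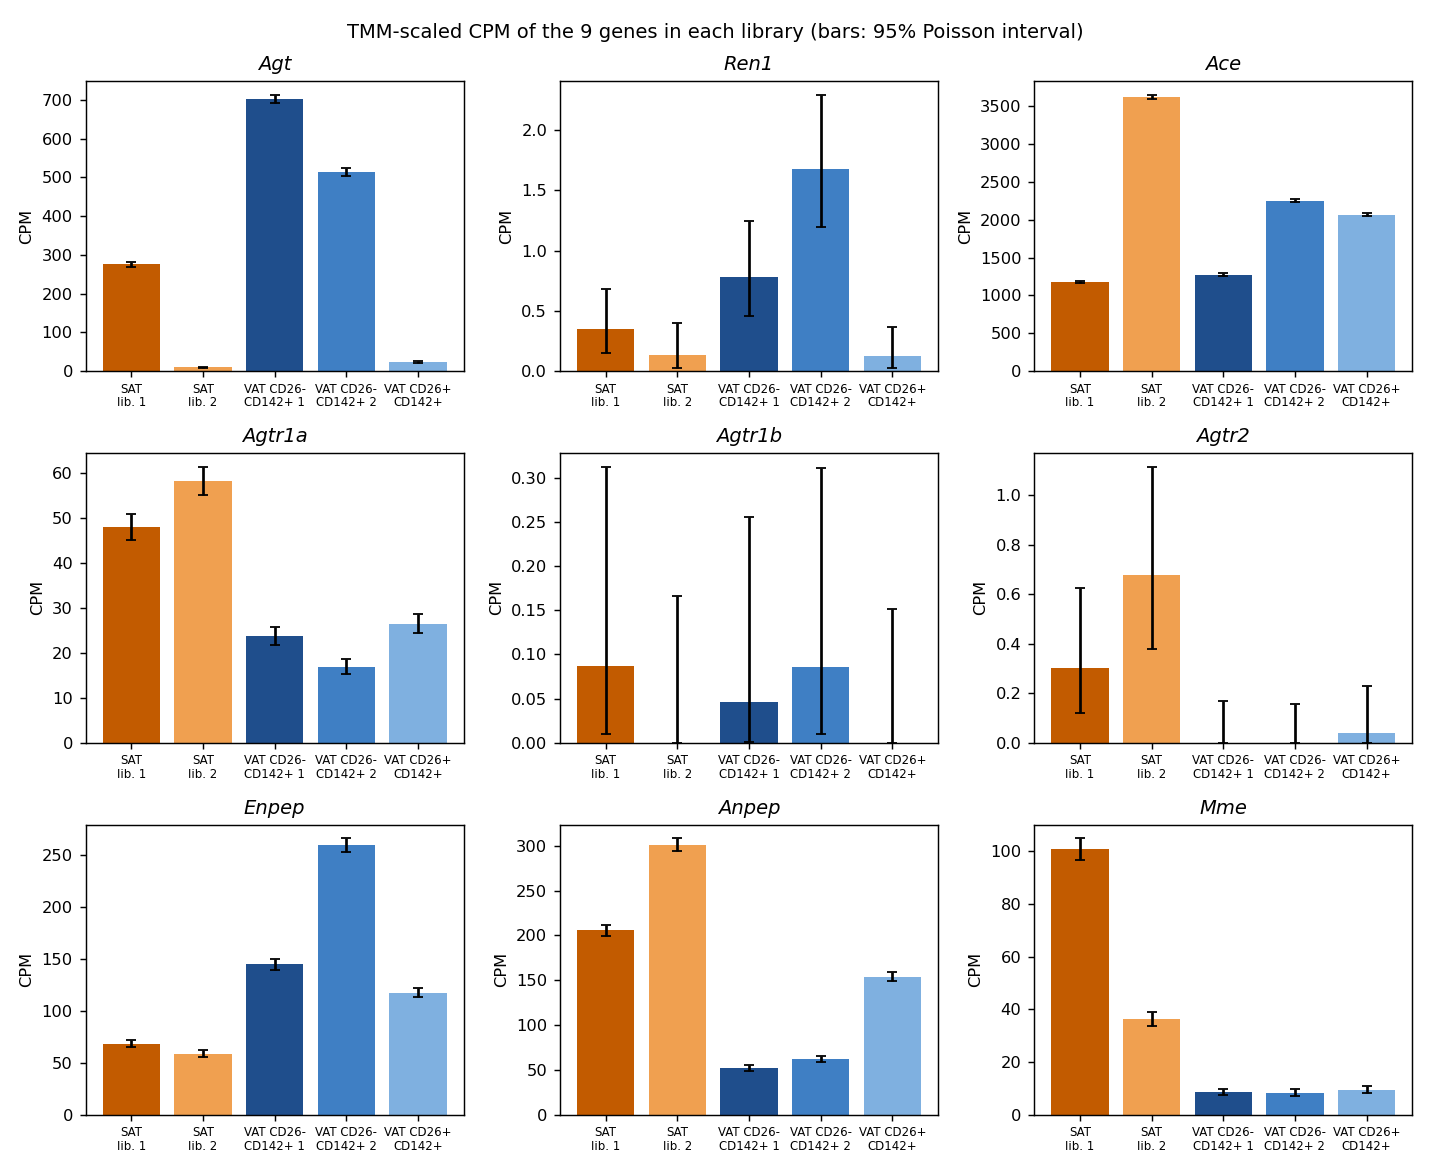
TMM-scaled CPM of each gene (y axis, linear, each panel with its own scale) in the 5 libraries (x axis), with 95% Poisson intervals for counting error only. Agt is at 22.8 CPM or less in the 2 libraries with Dpp4 high, Agtr1a, Anpep and Mme are higher in both SAT libraries than in every VAT library, and Enpep is lower in both.

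The 3 aminopeptidase and neprilysin genes divided by depot. Anpep and Mme were higher in both SAT libraries than in any VAT library, and Enpep was lower in both. With Agtr1a, 4 of the 7 genes tested did not overlap between depots, as did Agtr2 among the genes not tested, where 19.8% of all genes tested did not overlap. None of the 4 passed in SAT against VAT over all gates. Anpep and Mme passed in the comparisons of each SAT library with the VAT CD26-CD142+ pair.

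Mme, the gene of neprilysin (CD10), which degrades natriuretic peptides, kinins and angiotensins, had the largest log2 change of the 7 in SAT against VAT over all gates. Without SAT library 1, or in the libraries numbered 2 alone, that of Agt was larger (-5.36 and -4.73, against 2.04 and 2.01 for Mme), as it was with the library number as a block (-3.16 against 2.70). Mme (ENSMUSG00000027820, chromosome 3, 63241537 to 63386030) was at 101 and 36.3 CPM in SAT libraries 1 and 2, at 8.48 and 8.39 CPM in the VAT CD26-CD142+ pair and at 9.52 CPM in the VAT CD26+CD142+ library. The VAT libraries averaged 8.80 ± 0.63 CPM (SD, n = 3), and SAT library 2 was below SAT library 1 by 2.77-fold (counting interval 2.56 to 3.01).

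Against the VAT CD26-CD142+ pair, Mme was 11.9-fold higher in SAT library 1 (log2 change 3.58, SE 0.47, adjusted p = 4.07e-04) and 4.30-fold higher in SAT library 2 (2.11, SE 0.46, adjusted p = 0.0087). These 2 comparisons share the VAT libraries, and each rests on 1 SAT library. In them 2.36% and 6.48% of all genes passed, and 2 of 7 and 3 of 7 of the genes described here. In SAT against VAT over all gates, the log2 change of Mme was 2.96 (SE 0.45, adjusted p = 0.208). It passed there with DESeq2 (adjusted p = 2.79e-06), with no filter (0.0195) and without SAT library 2 (0.0377), within a range of 2.79e-06 to 1 over 14 alternatives. The change of Mme between gates was 0.18 (SE 0.48, adjusted p = 1) in VAT, and the depot difference of the gate effect by name was -1.65 (SE 0.72, adjusted p = 1). The patterns most like it were those of Pax1 (0.198), a paired box gene, Fam69c (0.207) and Chst11 (0.211), a chondroitin sulfotransferase gene.

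Anpep, the gene of aminopeptidase N (CD13), which turns angiotensin III into angiotensin IV, was higher in SAT and, within each depot, in the library with Dpp4 high. Anpep (ENSMUSG00000039062, chromosome 7, 79821803 to 79861059) was at 206 and 301 CPM in SAT libraries 1 and 2, at 51.7 and 62.1 CPM in the VAT CD26-CD142+ pair and at 154 CPM in the VAT CD26+CD142+ library. The CD26+CD142+ library lay above both libraries of the pair, and below both SAT libraries. In SAT, 1 library was set against 1, and Anpep was 1.46-fold higher in library 2 (counting interval 1.41 to 1.52), which is under 2-fold.

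Against the VAT CD26-CD142+ pair, Anpep was higher in SAT library 1 by 1.85 on the log2 scale (SE 0.46, adjusted p = 0.0477) and in SAT library 2 by 2.40 (SE 0.46, adjusted p = 0.00358). The former did not pass with limma-voom (adjusted p = 0.0602) or without the VAT CD26+CD142+ library (0.0589), within a range of 0.00712 to 0.0602. Between depots over all gates the change was 1.51 (SE 0.54, adjusted p = 0.653). In VAT, Anpep was 2.70-fold higher in CD26+CD142+ cells without passing (log2 change 1.43, SE 0.46, unadjusted p = 0.00739, adjusted p = 0.211). The change for CD26 status by name was 1.06 (SE 0.29, adjusted p = 0.194; 0.027 with DESeq2, within a range of 0.027 to 0.722). Ly6c1, a surface antigen gene, was among the 3 most like it (0.175), after Rgl3 (0.139) and Nipal2 (0.166), and was at 1051 and 1465 CPM in SAT and 262, 233 and 650 CPM in VAT.

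Enpep, the gene of aminopeptidase A, which turns angiotensin II into angiotensin III, had the opposite order of depots. Enpep (ENSMUSG00000028024, chromosome 3, 129269175 to 129332720) was at 68.2 and 58.7 CPM in SAT libraries 1 and 2, at 145 and 260 CPM in the VAT CD26-CD142+ pair and at 117 CPM in the VAT CD26+CD142+ library. The libraries of the pair differed 1.79-fold, and the CD26+CD142+ library was the lowest of the 3. The ratio of Enpep to Anpep per kilobase was 0.292 and 0.171 in SAT (libraries 1, 2), 2.46 and 3.67 in the VAT CD26-CD142+ pair and 0.671 in the VAT CD26+CD142+ library.

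Enpep was at a log2 change of -1.45 (SE 0.42, adjusted p = 0.517) in SAT against VAT, of -1.57 (SE 0.55, adjusted p = 0.239) in SAT library 1 and of -1.78 (SE 0.55, adjusted p = 0.0748) in SAT library 2 against the VAT CD26-CD142+ pair. The last passed with DESeq2 (0.0178), with no filter (0.0294) and without SAT library 1 (0.0442), within a range of 0.0178 to 0.0875. Between the VAT gates the change was -0.79 (SE 0.53, adjusted p = 0.985). Enpep is also known from pericytes. The 12 mural markers summed to 154 and 58.3 CPM in SAT libraries 1 and 2 and to between 121 and 229 CPM in VAT, and moved in both directions. Rgs5, Tagln, Cnn1 and Higd1b were at 4.06 CPM or less in every library. Des was at 96.5 to 138 CPM in VAT against 3.20 and 14.4 CPM in SAT, and Myh11 at 37.9 and 62.6 CPM in the VAT CD26-CD142+ pair against 5.01 to 5.98 CPM elsewhere. The pericyte genes Kcnj8 and Abcc9 had the opposite order, at 13.7 and 98.2 CPM in SAT library 1, 5.86 and 12.0 CPM in SAT library 2 and at most 1.38 and 8.52 CPM in VAT. In SAT library 1 against the pair, the log2 change was 3.48 for Kcnj8 and 3.64 for Abcc9, but -5.33 for Des and -3.15 for Myh11. Whether cells with these markers had a part in the Enpep difference was not tested. A pseudogene on the other strand of Enpep, Gm42628, had 18 to 65 counts, and a gene on the strand of Anpep that overlaps it, Gm44974, had 1 to 29. The most alike genes were H6pd (0.130), Arhgap32 (0.134) and Shisa9 (0.157).

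**Figure D3:**
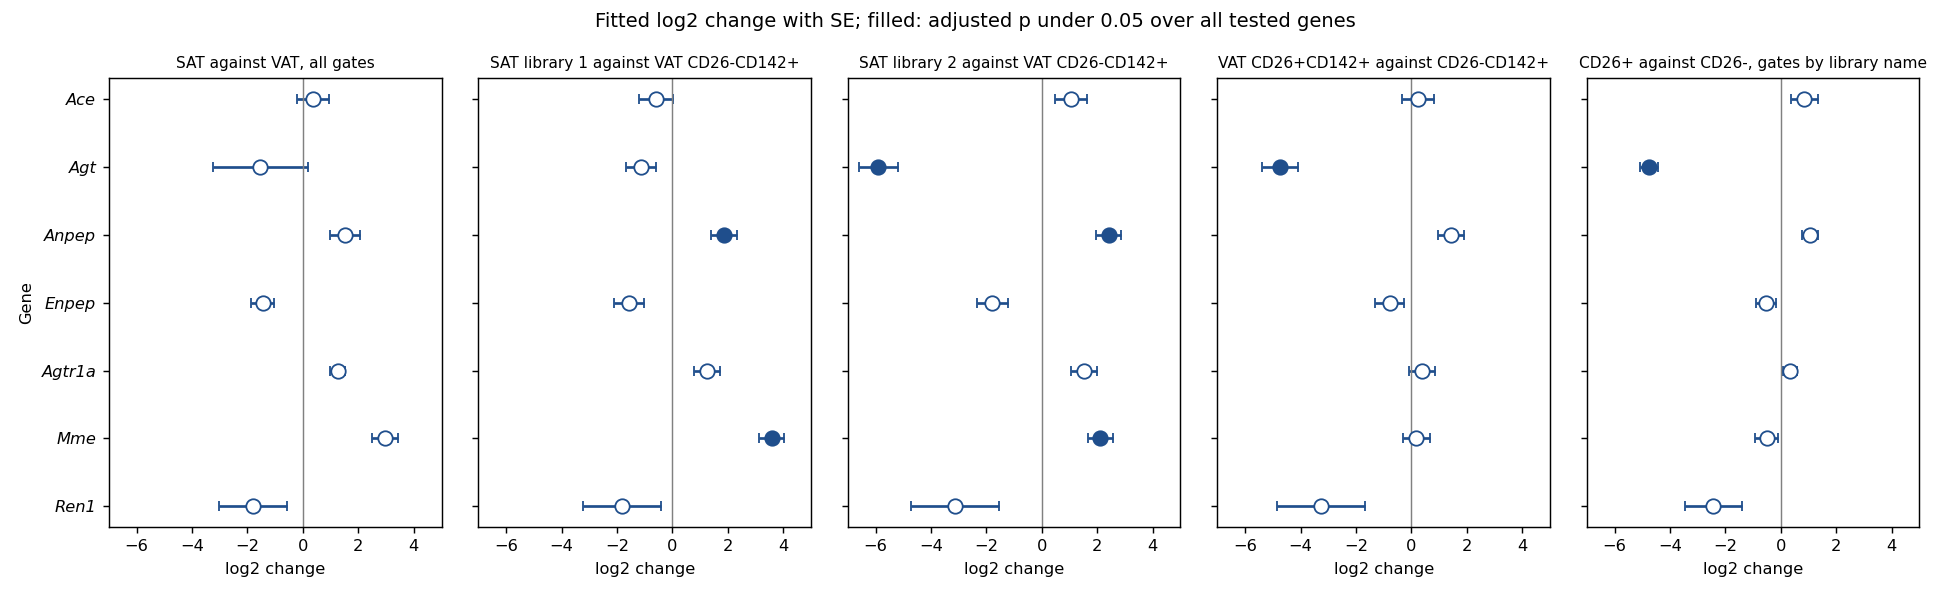
Fitted log2 change (x axis) with its SE for the 7 genes that passed the filter, in 5 comparisons. Filled points passed adjusted p of 0.05 over all tested genes: Agt in 3 panels, and Anpep and Mme in the 2 panels of a single SAT library against the VAT CD26-CD142+ pair.

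Of 17 other genes that make, cut or bind angiotensins, 9 passed the filter. Of these, 0 passed between depots (0.0503% of all genes), between VAT gates (1.6%) or for CD26 status by name (0.597%). Against the VAT CD26-CD142+ pair, 0 passed in SAT library 1 (2.36% of all genes) or in SAT library 2 (6.48%). The list's median log2 change was 0.14 between depots (all genes 0.01) and 0.13 between VAT gates (all genes -0.03). The most abundant were Ctsd, the cathepsin D gene, at 192 to 333 CPM, Lnpep, the gene of the angiotensin IV-binding aminopeptidase IRAP, at 70.8 to 154 CPM, Atp6ap2, the prorenin receptor gene, at 64.4 to 111 CPM, and Agtrap, a gene of a type 1 receptor-binding protein, at 66.3 to 91.8 CPM. Mas1, the gene of the angiotensin-(1-7) receptor, was named after its values were seen. It was at no more than 0.451 CPM, and the mast cell genes Cma1, Mcpt4 and Cpa3, also named then, were below 0.4 CPM in every library.

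Among 24 other membrane peptidase genes, 17 passed the filter and 1 rose in VAT CD26+CD142+ cells, the sort gene Dpp4 (6.15, SE 0.54, adjusted p = 6.72e-05). It was also the 1 that passed for CD26 status by name (6.64, SE 0.40, adjusted p = 0.0368), though not with the library number as a block. None passed between depots. Of all genes, 1.6% passed between the VAT gates, 0.597% for CD26 status by name and 0.0503% between depots. Against the VAT CD26-CD142+ pair, 2.36% passed in SAT library 1 and 6.48% in SAT library 2. Dpp4 was also higher in SAT library 2 than in that pair (log2 change 7.42). Folh1, the glutamate carboxypeptidase II gene, was higher in SAT library 1 (2.89, SE 0.67, adjusted p = 0.029) and in SAT library 2 (2.74, SE 0.67, adjusted p = 0.0185) than in the VAT CD26-CD142+ pair. It was at 8.96 and 8.07 CPM in SAT and 0.989 to 1.57 CPM in VAT, so all SAT libraries lay above all VAT libraries. Ggt5, a gene of leukotriene-cleaving gamma-glutamyltransferase, was lower in SAT library 2 (-3.62, SE 0.61, adjusted p = 0.00117), at 31.3 CPM against 430 and 337 CPM. Naalad2 was lower there too (-1.89, SE 0.52, adjusted p = 0.0413).

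ACE and neprilysin also act on peptides outside the angiotensin pathway. Of 22 kinin, natriuretic peptide, endothelin and related genes, 15 passed the filter, and in VAT CD26+CD142+ cells 1 rose and 1 fell, where 1.6% of all genes passed. Edn1, the endothelin-1 gene, was at 76.1 CPM there against 6.88 and 6.41 CPM (log2 change 3.52, SE 0.46, adjusted p = 9.59e-04). Ednra, the endothelin A receptor gene, was at 0.701 CPM against 13.3 and 10.1 CPM (-4.05, SE 0.72, adjusted p = 0.00766). In SAT, Edn1 was at 1.90 CPM in library 1 and 274 CPM in library 2, and Ednra at 22.4 and 0.361 CPM. Edn1 and Ednra were thus high in opposite libraries in both depots. Ednrb, the endothelin B receptor gene, was under 1 CPM in every library. Its log2 change between the VAT gates was 6.52 (SE 2.48), in the direction of Edn1. For CD26 status by name, Ednra was at the threshold (-4.80, SE 0.58, adjusted p = 0.0499) and, like every gene, did not pass with the library number as a block. Edn1 did not pass there.

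In SAT library 2 against the VAT CD26-CD142+ pair, 2 genes of this list rose and 6 fell, where 6.48% of all genes passed. Edn1 (5.37, SE 0.49) and the adrenomedullin and CGRP receptor gene Calcrl (2.37, SE 0.46) rose. The bradykinin receptor genes Bdkrb2 and Bdkrb1, the kininogen genes Kng1 and Kng2, the natriuretic peptide clearance receptor gene Npr3 and Ednra fell. Bdkrb2 was at 0.0902 CPM in SAT library 2 and at 7.11 and 12.9 CPM in the pair, and Npr3 at 1.22 against 27.7 and 24.2 CPM. In SAT library 1 none of the 15 passed, with Bdkrb2 at 1.86 and Npr3 at 13.3 CPM.

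**Figure D4:**
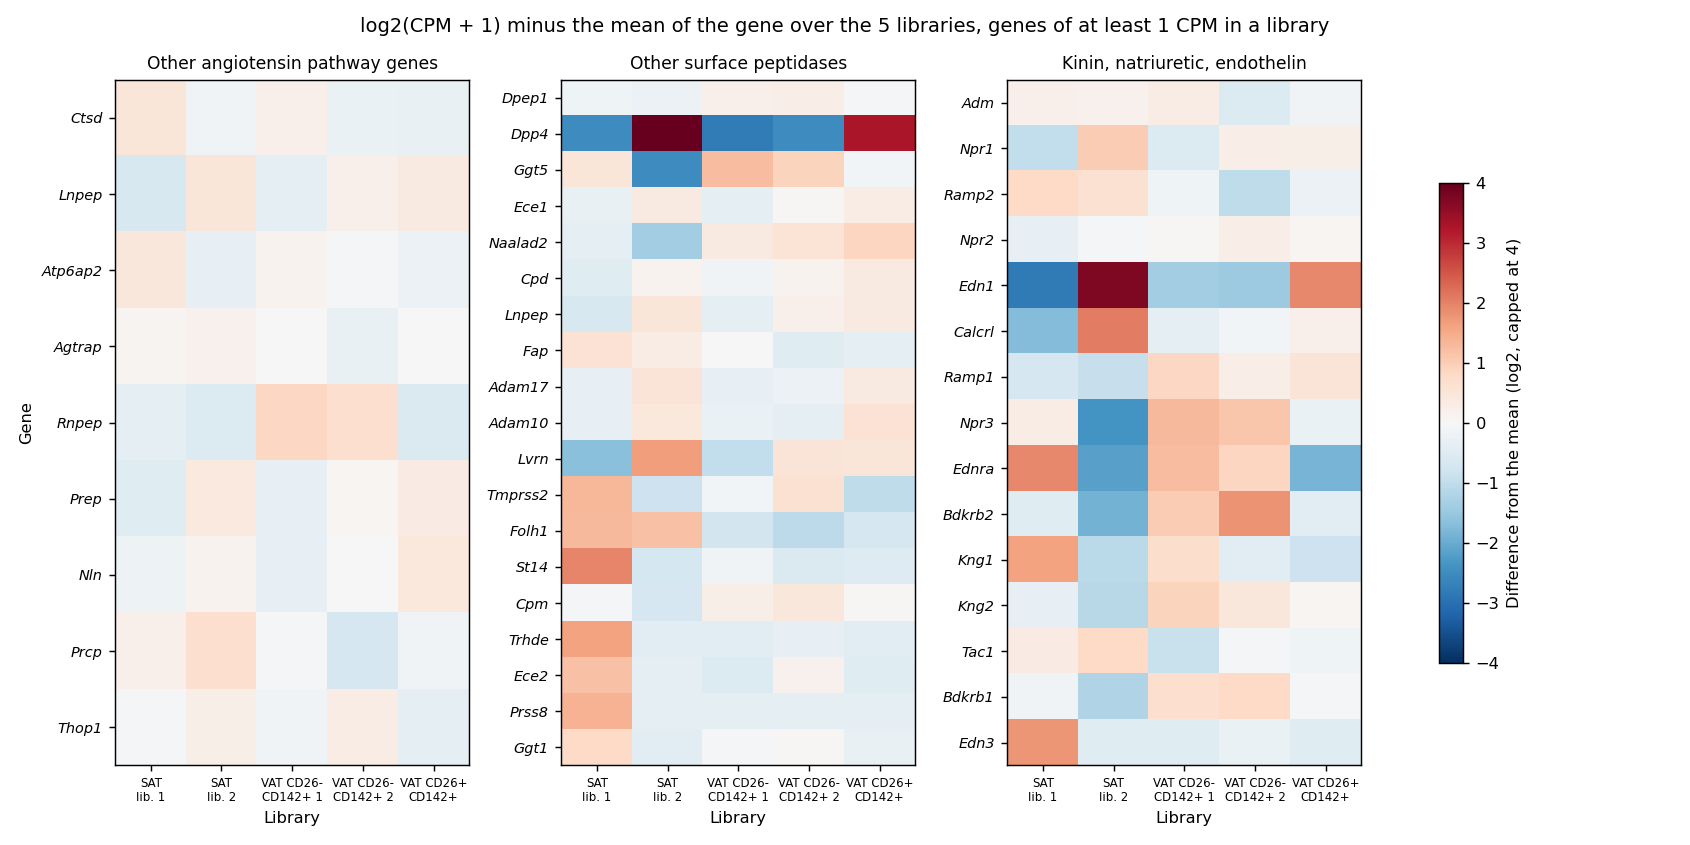
Difference of log2(CPM + 1) from the gene's mean over the 5 libraries (colour, capped at 4) for genes of 3 lists with at least 1 CPM in a library. Dpp4, Edn1, Ednra and Ggt5 differ between libraries of the same depot.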

How the data were processed

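Poly(A)-selected RNA of 5 sorted populations was sequenced, and the authors deposited raw read counts per gene without normalization, with a gene length in another unit, bases. Per the submitters' processing notes, the tools were CASAVA, HISAT2 2.0.5 and featureCounts 1.5.0-p3 with build mm10. The annotation release and strand setting are not given in the sources used here. All 9 genes have the coordinates of GENCODE mouse release M21.

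Counts were scaled by TMM on genes kept by filterByExpr (minimum count 10, depot as the group; 15920 kept, 38612 removed). Tests were edgeR 4.0.16 quasi-likelihood F tests, robust, with Benjamini-Hochberg adjustment over all tested genes at 0.05. Each SE was taken as |change|/sqrt(F). Depot was fitted over all gates (3 residual degrees of freedom), CD26 status with depot as a term (2), and other contrasts in a 4-group fit (1, from the VAT CD26-CD142+ pair). The code was tested on simulated data. The 2 SAT libraries were compared without a test: genes counted as apart had a ratio of 2 or more after adding 1 CPM, and 10 CPM or more in the higher library.

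Intervals are 95% exact Poisson, or exact conditional for a ratio. They cover only counting error, as no molecular identifiers are described and PCR copies are not independent. The labels do not say whether libraries came from separate pools of mice, so p-values measure the spread between these libraries, which may be technical. The depot fit over all gates had no term for gate, so its spread also holds differences between gates.

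Genes named from lists are mostly those that passed in a comparison, or the 4 with the highest mean CPM. Others with low values, among them Lep, Cnn1, Higd1b, Cyp11b1 and Cyp11b2, were named outside this rule. The 3 genes most like each gene were taken from 9747 genes of at least 10 CPM in a library. The genes and lists were chosen with earlier results of these data known. Alternatives were RLE scaling, no filter, DESeq2 1.42.0, limma-voom 3.58.1, mitochondrially encoded genes left out, each library left out, the library number as a block, and gate terms.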

Additional observations from a re-analysis of the deposited data

Results flagged for a closer look

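The effect of the CD26 gate on Agt differed between depots when gates were taken by title, by 9.51 on the log2 scale (SE 0.95, adjusted p = 2.19e-05, edgeR). The SAT library titled CD26+CD142- had Agt at 275 CPM and the one titled CD26-CD142+ at 10.1 CPM, while in VAT the CD26+CD142+ library had 22.8 CPM and the CD26-CD142+ pair 702 and 514 CPM. By library name the difference was -0.03 (SE 0.77, adjusted p = 1). Dpp4, at 6.58 and 1007 CPM in the SAT libraries titled CD26+ and CD26-, goes against the titles.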

How the results depend on the processing

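Leaving out mitochondrially encoded genes or scaling by RLE changed no call on the 7 genes and moved no count by over 1.5 times. Without the filter, 70 genes passed between depots, 491 between VAT gates, 775 for CD26 status by name, 727 for SAT library 1 against the VAT CD26-CD142+ pair, 1621 for the depot difference by title and 181 by name. DESeq2 gave 465 between depots, 16 for CD26 status by title, 1338 by name and 85 for the depot difference by name, and limma-voom gave 0 between depots and 10 for the depot difference by name. The library number, which the labels do not tie to a batch and whose pairing could not be checked with single-library groups, was tried as a replicate block: 5 genes passed between depots and 0 for CD26 status by name, where Agt was at -4.45 (adjusted p = 0.255). With a term for CD26 status by name, 83 genes passed between depots, with one by title 0, and 0 in libraries numbered 2 alone. Leaving out 1 library gave 0 to 17 genes between depots, 356 to 383 between VAT gates, 0 to 522 for CD26 status by title, 138 to 2034 by name and 332 to 580 for SAT library 1 against the pair. Directions turned only on leaving out a library. Over those omissions Ace ran from -0.68 to 0.95 between depots, from -0.12 to 0.70 between VAT gates and from -1.64 to 0.24 by title. By title, Agt ran from -4.73 to 4.76, Ren1 from -3.25 to 1.31, Agtr1a from -0.29 to 0.39, Enpep from -0.77 to 0.21 and Anpep from -0.56 to 1.45. By name, Mme ran from -1.46 to 0.19, and in the depot difference Agt from -0.28 to 0.18 and Agtr1a from -0.37 to 0.12. The depot difference without a VAT CD26-CD142+ library has no residual degrees of freedom and gave values without a test. The cause was not tested.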

Other observations

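Genes of the steroid arm were measured as well. Of 9 receptor and enzyme genes, 7 passed the filter. Of these, 0 passed between depots (0.0503% of all genes), between VAT gates (1.6%) or for CD26 status by name (0.597%). Against the VAT CD26-CD142+ pair, 2.36% of all genes passed in SAT library 1 and 6.48% in SAT library 2. Cyp11b1 and Cyp11b2, which make corticosterone and aldosterone, were at 0 in every library. Hsd11b1, the gene of the enzyme that regenerates active glucocorticoid, was lower in SAT library 2 than in the VAT CD26-CD142+ pair by 2.13 on the log2 scale (-2.13, SE 0.58, edgeR adjusted p = 0.0351). It was at 118 CPM there, at 628 and 401 CPM in the pair, and at 152 CPM in the VAT CD26+CD142+ library and 230 CPM in SAT library 1. Hsd11b2, the gene of the inactivating enzyme, was higher in SAT library 1 (3.16, SE 0.61, adjusted p = 0.00885), at 22.0 CPM against 2.93 and 1.98 CPM. The mammary and skin epithelial markers summed to 90.1 CPM in SAT library 1 and to between 9.89 and 14.4 CPM in the other libraries.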
